A study of Camponotus floridanus with 48 samples.

Results

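The 150 transcripts described here had their lowest median at intermediate body length among terminal-stage larvae of Camponotus floridanus, the Florida carpenter ant. They come from 142 genes, all annotated as protein-coding, and were taken from 26314 transcripts in the authors' normalized table. A transcript was eligible if it carried a RefSeq mRNA name, was over 600 and under 15000 nt long, had a median of 200 to 20000 normalized counts over all larvae, and had a Spearman correlation with body length between -0.4 and 0.4. Of the 8391 eligible transcripts, the 150 with the largest dip were kept. The dip is the lower of the medians of log2(value + 1) in the 16 shortest and the 16 longest larvae, minus the median in the 16 larvae between them. The dip chose the members, so it is a description and carries no test.

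The study sequenced polyadenylated RNA of 48 whole female larvae from 1 colony, with 1 library per larva. All were labelled as terminal larvae, and no treatment or genotype separates them. They differ by a measured body length, and the 3 length groups were formed from it. The shortest group ran from 4648.07 to 5376.84 µm, the intermediate group from 5395.82 to 6613.4 µm and the longest group from 6689.42 to 7598.06 µm. The labels give no separate colonies, dates or batches, so spread between larvae is spread within 1 colony.

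Camponotus workers range from small minors to large majors. Adult ants do not grow, so adult size depends on growth as a larva, and the last larval stage ends when feeding stops and the animal prepares for metamorphosis. In whole-body RNA the level of a transcript depends both on how active its gene is and on how much of the body consists of cells that use it, and these cannot be told apart in bulk samples. One gene can also give several transcripts through alternative start sites, splicing and end sites. Reads that fit several of them are divided by an estimate, so the level of a single transcript is less certain than that of its gene. All 142 genes carry only locus numbers as symbols and no product names were used here, so members are named without a known function.

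Libraries held 6608777 to 63171583 reads assigned to transcripts. Apart from larvae No. 42 and No. 43, both in the longest group, every library had at least 29813779. On the first principal component of 10371 genes, computed with the genes of the members left out, 15 libraries had scores from 27.5 to 118.5 and the other 33 from -62.6 to 7.37. That component held 43.6% of the variance between libraries. Of the 15, 2 were in the shortest group (No. 9 and No. 15), 8 in the intermediate group (No. 4, 6, 17, 31, 32, 33, 36 and 38) and 5 in the longest group (No. 3, 29, 49, 53 and 68). These 15 larvae were separated by genes other than those of the members. Values are over all 48 larvae unless they are said to be without the 15.

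The members were not low throughout the intermediate group. Larvae were ordered by length in blocks of 8, and each transcript was set against its own median over all 48. From 5395.82 to 5850.88 µm the median member stood 0.40 above its own median on the log2(value + 1) scale, with 131 of 150 members above. From 5991.09 to 6613.4 µm the median member stood at -1.87, and 148 of 150 members were below. The next block, 6689.42 to 7114.6 µm, had a median of -0.83 with 133 members below, although it belongs to the longest group. In the block of longest larvae, 7122.86 to 7598.06 µm, the median was back at 0.46.

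For 139 of 150 members the lowest of the 6 blocks was the one from 5991.09 to 6613.4 µm, which was the lowest block of 40.8% of all eligible transcripts. That block held 7 of the 15 larvae that stood apart, and the next longer one held 4. The other blocks held 2, 0, 1 and 1 of them.

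**Figure D1:**
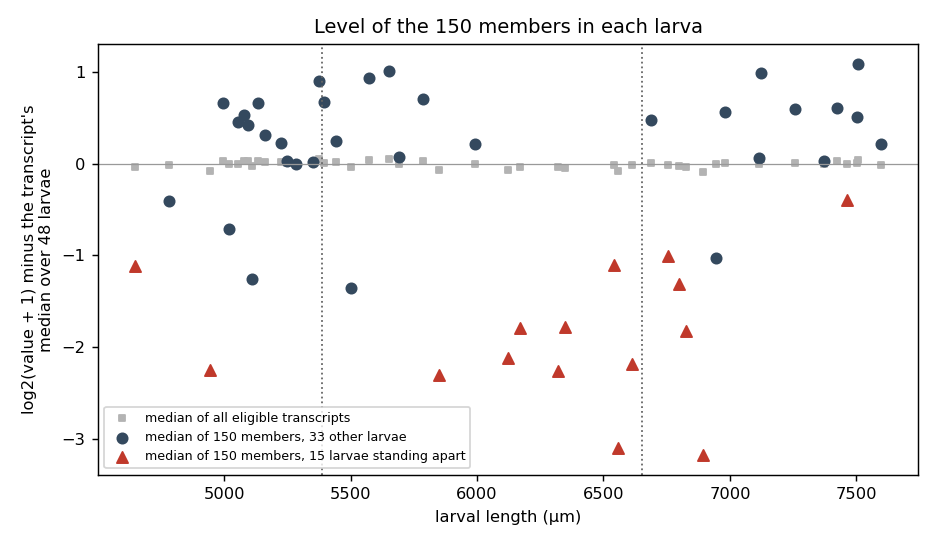
Median deviation of the 150 members from their own medians over 48 larvae (log2 scale, y axis) against larval length in µm (x axis), 1 point per larva. Red triangles are the 15 larvae that stood apart, dark points the other 33, grey squares the median of all eligible transcripts, and dotted lines the borders between the 3 length groups. The triangles lie between -3.17 and -0.40, and 11 of the 15 fall in the range from 5991.09 to 7114.6 µm.

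The median member was low in each of the 15 larvae that stood apart, in all 3 length groups. Members were chosen for low values in the intermediate group, which holds 8 of the 15, so this follows in part from the choice. In the 15, the median member deviation ran from -3.17 to -0.40, and 109 to 148 of the 150 members were below their own median. In the other 33 larvae it ran from -1.35 to 1.09, with 7 to 125 members below. Of eligible transcripts, 51.2% to 55.1% were below their own median in the 15 and 44.3% to 54.3% in the 33. Over all eligible transcripts the median deviation stayed between -0.09 and 0.05 in every larva. The lowest larva was No. 3, in the longest group, at -3.17. No. 32, of intermediate length, followed at -3.09.

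The separation was not complete. Among the 33, larva No. 64 stood at -1.35, No. 2 at -1.25, No. 5 at -1.03, No. 18 at -0.71 and No. 22 at -0.40, and their scores on the first component were no higher than 1.83. Larva No. 19 is the only larva from 5991.09 to 6613.4 µm that did not stand apart, and its median member was 0.22 above its own median. Of the 7 larvae in the 2 end groups that stood apart, all 7 lay below the median of the other end larvae for 112 members, and at least 5 of the 7 for 135 members. The members were chosen on values of these larvae and no such count was made for eligible transcripts, so nothing is read from it.

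Members also kept company within each set of larvae. The median Spearman correlation between pairs of members was 0.41 over the 33 larvae and 0.40 over the 15, against 0.0 in both for pairs of eligible transcripts. These are descriptions over libraries that share one colony, and the members were chosen on the same values.

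The dip ran from 0.87 to 9.53 on the log2 scale, with a median of 1.10, while the median over all eligible transcripts was -0.05 and 40.2% of them had a dip above 0. It exceeded 2 for 13 members, was between 1 and 2 for 78 and below 1 for 59. Of the 150, 79 had a higher median in the shortest than in the longest group and 71 the reverse. For all 150 members the values of the intermediate larvae overlapped those of both end groups. At the border of the list, the last members were LOC105256584 and LOC105251989 with a dip of 0.875, LOC105252953 with 0.874, LOC105249954 with 0.871 and LOC105255500 with 0.87. The first left out were LOC105252598, LOC105257948 and LOC105254507 with 0.869, LOC105255415 with 0.868 and LOC105256705 with 0.860, so the list ends inside a continuum.

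Members were longer and less abundant than the eligible transcripts. Their median length was 3514 nt against 2423 nt, and their median level was 453 against 825 normalized counts. Set against the mean library, expression changed with transcript length by -0.49 to -0.01 log2 per doubling of length in the 15 larvae that stood apart and by -0.24 to 0.28 in the other 33. A separate trend with transcript length was fitted on the normalized counts, and with that one removed from each library the median dip was 1.04. What part of the dip goes with transcript length was not tested.

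The clearest whole-gene case was LOC105258627, all 3 annotated transcripts of which are members. Its most abundant transcript, XM_025411601.1, had 329 to 3335 normalized counts with a median of 2218 in the 16 shortest larvae. In the 16 intermediate larvae it had 220 to 2667 with a median of 520, and in the 16 longest 179 to 3375 with a median of 1879. The 15 larvae that stood apart all lay between 179 and 460, and the other 33 all lay at 585 or above, so these 2 sets did not overlap while the 3 length groups did. The lowest of the 33 were No. 19 with 585 and No. 76 with 695. Without the 15 the dip of this transcript was 0.27 against 1.86, and that of the gene total 0.18 against 1.69.

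The other transcripts of LOC105258627 moved with it. XM_025411600.1 had medians of 485, 128 and 464 normalized counts in the shortest, intermediate and longest larvae, and XM_025411599.1 had 589, 158 and 486. For the gene as a whole, reads scaled to a mean library had medians of 3659, 872 and 2839. XM_025411601.1 took 67.0%, 70.9% and 64.7% of them, so the split between transcripts changed little while the total was lower.

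The most abundant member, XM_011252565.3 of LOC105248028, is also the shortest at 669 nt and the only annotated transcript of its gene. It ranged from 2592 to 28730 normalized counts with a median of 16480 in the shortest larvae. The intermediate larvae had 481 to 24550 with a median of 4559, and the longest 812 to 32550 with a median of 13490. The lower end median was 2.96 times that of the intermediate larvae, a dip of 1.57 that was 0.72 without the 15. Per length, its median was 1430, 379 and 1090 TPM (transcript abundance per length and depth) in the 3 groups.

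XM_011261761.3 of LOC105253620, another gene with 1 transcript, had 1430 to 12590 normalized counts (median 6603) in the shortest larvae. It had 712 to 12320 (median 2494) in the intermediate and 644 to 13910 (median 6878) in the longest larvae, a ratio of 2.65. Its dip was 1.41, and -0.15 without the 15. The ranges of the 3 groups overlapped almost wholly. A few further members complete the 5 of highest level. Their ratios on normalized counts were smaller, at 2.47, 1.84 and 2.07 in the order in which they are named next. XM_011266130.3 of LOC105256319 had TPM medians by length group of 70.5, 24.5 and 65.3, XM_025413943.1 of LOC112639556 had 107, 53.6 and 112, and XM_011253149.3 of LOC105248391 had 122, 52.8 and 112.

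**Figure D2:**
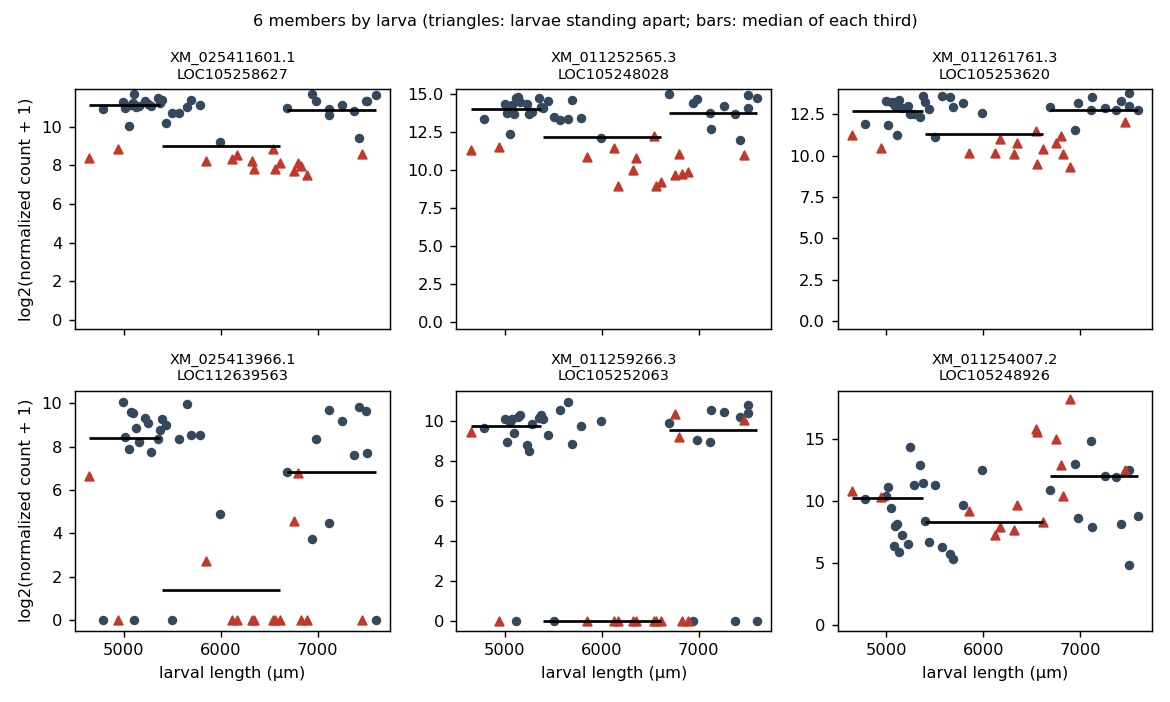
Log2(normalized count + 1) of 6 members (y axis) against larval length in µm (x axis), 1 point per larva, with red triangles for the 15 larvae that stood apart and dark points for the other 33. Horizontal bars are the medians of the 3 length groups. In XM_025411601.1 the triangles form a separate low band, in XM_011259266.3 larvae are either near 0 or near the upper level, and in XM_011254007.2 several triangles are among the highest points.

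The 6 members with the largest dips, 7.57 to 9.53, had a median of 0 in the intermediate larvae. XM_011259266.3 of LOC105252063 had medians of 857, 0 and 759 normalized counts in the shortest, intermediate and longest larvae. It was listed at 0 in 2, 9 and 5 of the 16 larvae of each group, and the highest intermediate larva had 1973, above every larva of both end groups. Its values are thus either 0 or far above 0 in all 3 groups, and the dip comes from the number of larvae at 0. The size of such a dip depends on the scale and the grouping. For XM_011259266.3 it was 9.53 on normalized counts, 4.27 on CPM, 3.51 on TPM, 2.52 with group means, 0.53 with 12 larvae at each end and 24 between, and 0.02 without the 15. For XM_025414371.1 of LOC105250815 it was 7.92 and changed sign, to -0.61, with 12 larvae at each end. Among all 6 it was 2.50 to 4.27 on CPM and 1.40 to 3.51 on TPM.

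The totals of these genes shared little or none of the dip. LOC105252063 as a whole had medians of 5670, 6261 and 5858 scaled reads, and XM_011259266.3 took 18.3%, 0% and 12.5% of them. The same held for XM_011258093.3, with medians of 402, 0 and 394 normalized counts while its gene LOC105251352 had 9697, 8630 and 8755 scaled reads. XM_025414371.1 had 242, 0 and 349 normalized counts while LOC105250815 had 594, 656 and 558 scaled reads.

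The remaining 3 of these 6 had somewhat lower gene totals in the intermediate than in the shortest larvae. XM_011258120.3 of LOC105251361 had medians of 460, 0 and 539 normalized counts, with gene totals of 2172, 1775 and 1912 scaled reads. XM_025407051.1 of LOC105255932 had 737, 0 and 399, with gene totals of 4545, 3985 and 3651. XM_011261894.3 of LOC105253684 had 355, 0 and 193, with gene totals of 1842, 1348 and 1302. In the last 2 genes the total was lowest in the longest larvae, so the gene itself had no dip.

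The seventh, XM_025413966.1 of LOC112639563, is the only annotated transcript of its gene. It had 0 to 1073 normalized counts with a median of 335 in the shortest larvae, 0 to 992.5 with a median of 2.79 in the intermediate and 0 to 903 with a median of 111 in the longest. Of the 8 intermediate larvae that stood apart, 7 were listed at 0 and No. 17 had 5.6. Larva No. 64 did not stand apart and was also at 0. Here the zeros are those of a whole gene and not of one transcript among several. Without the 15 its dip was -0.81 against 5.45.

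The next 5 members make up the 12 with the largest dips, and all 5 belong to genes with 3 to 11 transcripts. XM_011271340.3 of LOC105259426 had medians of 736, 163 and 1111 normalized counts, and XM_020028547.2 of LOC105254593 had 901, 91.4 and 429. XM_011267362.3 of LOC105257024 had 394, 107 and 300.4, XM_011252139.3 of LOC105247762 had 208, 51.9 and 449.7, and XM_011261859.3 of LOC105253685 had 418, 48.1 and 209. The dips of the 5 gene totals were only 0.03 to 0.28.

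Across all members, 31 belong to genes with 1 annotated transcript and 119 to genes with several, 79.3% against 67.1% of eligible transcripts. On scaled reads the 31 had a median dip of 1.19, and each exceeded 0.87. For the 119, the median dip was 1.13 for the transcript and 0.38 for the whole gene, against -0.06 for the genes of all eligible transcripts. The gene total had a dip above 0.5 for 47 of the 119 and above 0.87 for 23, and it had none for 28. The member's share of its gene's reads was lowest in the intermediate larvae for 96 of the 119. A low share there follows in part from the choice of the members. Such counts of gene totals and shares were not made for eligible transcripts, with or without the 15. Without the 15 libraries the median dip was -0.22 for the 31 genes with 1 transcript, 7 of which had a dip above 0. For the 119 it was -0.24 for the transcript and -0.16 for the gene, no gene total had a dip above 0.5, and the share was lowest for 34.

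Other transcripts of the same genes had almost no dip as a set. Of 179 such transcripts with a median of at least 200 normalized counts, in 92 genes, 91 were lowest in the intermediate larvae, 32 were highest there and 56 lay between the ends. The 91 are 50.8%, against 40.2% of eligible transcripts, and the median dip of the 179 was 0.01. Of eligible transcripts 33.4% were highest there. The 179 were not held to the limits on name, length, upper level and correlation, so these shares come from unlike sets. Without the 15, 42 of the 179 were lowest and 48 highest in the intermediate larvae, with a median dip of -0.15. Of eligible transcripts 24.1% were then lowest there, with a median dip of -0.09.

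**Figure D3:**
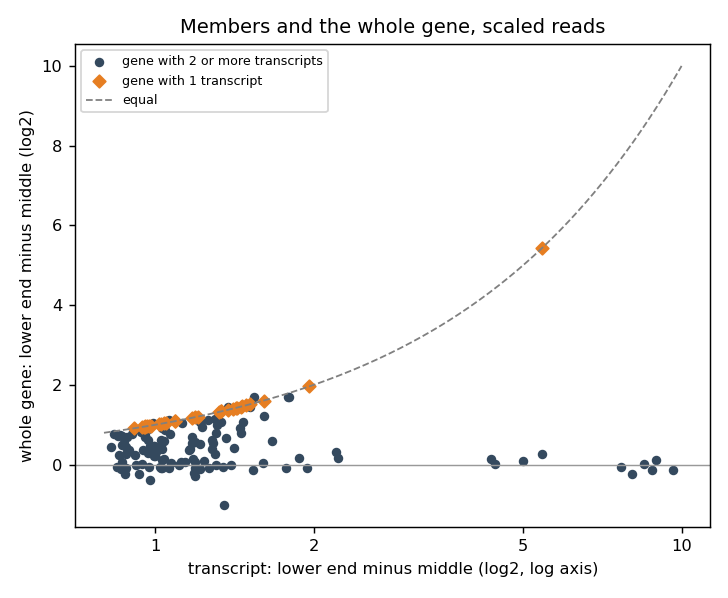
Dip of the whole gene (log2, y axis) against dip of the member transcript (log2 units on a logarithmic axis, x axis), both from reads scaled to a mean library, 1 point per member. Orange diamonds are genes with 1 annotated transcript, for which both dips are the same value, dark points are genes with 2 or more, and the dashed curve marks equal dips. Most dark points lie below the curve, with a median gene dip of 0.38.

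In all, 7 genes hold 2 or 3 members each, 15 members together, and they split into genes whose total was lower at intermediate length and genes whose total was not. Beside LOC105258627, LOC105247921 was lower as a whole, with gene medians of 647, 235 and 768 scaled reads, and both its transcripts are members. Gene dips of LOC105256581, LOC105256333 and LOC105248614 were 0.62, 0.59 and 0.38. Without the 15 the gene dip of LOC105247921 was -0.58, and those of these 3 genes were -0.16, -0.47 and -0.18. LOC105251499 and LOC105253419 had gene dips of -0.08 and -0.06, and their members' dips came from their shares: XM_025409599.1 took 26.4%, 12.1% and 25.3% of the reads of LOC105251499. Members of 1 gene share reads and are not independent. Of the 3 pairs of neighbouring genes that both hold members, LOC105255207 and LOC112638726 overlap, so reads could be shared between them too.

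Slopes with body length were fitted inside each length group with edgeR's quasi-likelihood F test, with Benjamini-Hochberg adjustment at 0.05 over all transcripts tested. The rule used the group medians of the same larvae and the correlation over all 48, so these counts describe the shape of the dip and are not independent evidence for it. In the intermediate group 89 of 150 members were called falling, against 11.9% of 19311 transcripts tested, and 1 was called rising, against 13.9%. The median member slope was -2.42 log2 per mm, against -0.03 for eligible transcripts. The 89 slopes ran from -1.61 to -12.62 log2 per mm, with adjusted p from 0.00132 to 0.0429. DESeq2 called 112 members falling (16.3% of transcripts tested) and 2 rising (15.2%), and limma on the normalized table called 109 falling (16.8%) and 0 rising (15.4%). Called falling by edgeR were 26 of 31 members of genes with 1 transcript and 63 of 119 members of genes with several. The share called over all transcripts was not computed for each kind of gene, so this contrast is not read as a trait of the members.

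The smallest adjusted p among falling members was that of XM_025411601.1 of LOC105258627, with a slope of -2.74 ± 0.45 log2 per mm (SE, n = 16, edgeR adjusted p = 0.00132). XM_020028145.2 of LOC105253389 had a slope of -1.77 ± 0.30 inside the intermediate group (edgeR adjusted p = 0.00145). Its median there was 1901 normalized counts, and the medians of the shortest and longest larvae were 3722 and 3538. XM_011261076.3 of LOC105253208 followed with -2.95 ± 0.51 (edgeR adjusted p = 0.00161). The steepest of all 89 was XM_025413966.1 of LOC112639563 with -12.62 ± 2.27 (edgeR adjusted p = 0.00194), a slope that rests on larvae at 0. XM_011266130.3 of LOC105256319 had -3.05 ± 0.58 (edgeR adjusted p = 0.00257).

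In the 16 shortest larvae edgeR called 0 members rising and 0 falling, as it did for all 20392 transcripts tested (0% in each direction). At an unadjusted p under 0.05, 31 members had a positive slope and 0 a negative one, against 6.90% and 8.90% of all transcripts tested. Without the 15 these counts were 5 and 1, against 1.14% and 1.5%. DESeq2 called 5 rising (1.16% of transcripts tested) and 0 falling (1.98%) and limma 0 in both directions (0%). In the 16 longest larvae edgeR likewise called 0 members in either direction (0% of 19387 transcripts). There 15 members had a positive and 1 a negative slope at an unadjusted p under 0.05, against 3.77% and 7.36% of transcripts, and without the 15 libraries 5 and 0, against 2.13% and 1.82%. DESeq2 called 1 rising (0.499%) and 1 falling (0.749%), and limma called 0 rising (0%) and 0 falling (0.00575%). Median member slopes were 2.07 log2 per mm in the shortest and 1.36 in the longest larvae, against 0.08 and -0.04 for eligible transcripts. Without the 15 they were 0.93 and 0.37, against 0.02 and -0.04. For 131 of 150 members, and for 3007 of the 8391 eligible transcripts, the fitted slope was positive, negative and positive in the 3 groups in order of length. Without the 15 that held for 46 members and 920 of the 8391 eligible transcripts. The members were chosen for a dip, so nothing is read from this difference.

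**Figure D4:**
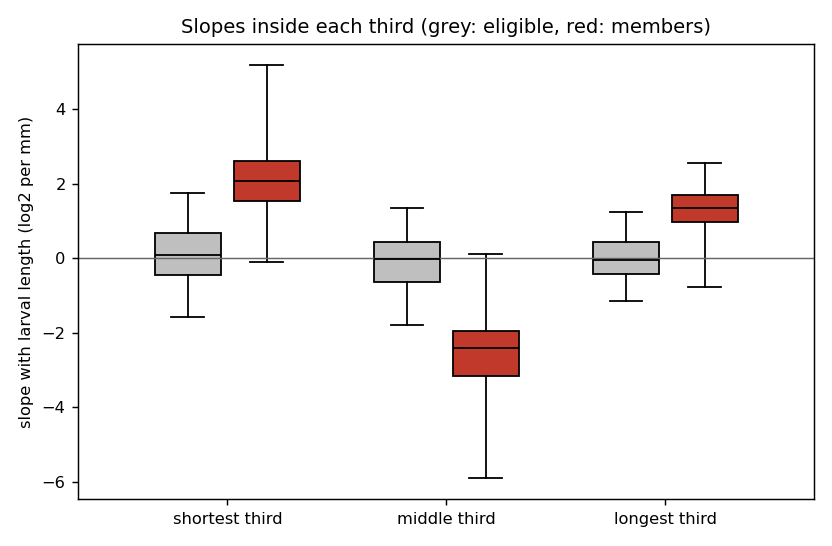
Slopes with larval length inside each length group (log2 per mm, y axis) for eligible transcripts (grey) and the 150 members (red). Boxes span the quartiles with the median as a line, and whiskers reach from the 5th to the 95th percentile. Member medians are 2.07 in the shortest, -2.42 in the intermediate and 1.36 in the longest larvae, and eligible medians lie between -0.04 and 0.08.

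Without the 15 larvae that stood apart, 14, 8 and 11 larvae were left in the 3 groups, and the dip of most members was gone. The median dip over the 150 was -0.22, and 33 of them, 22.0%, had a dip above 0, against 24.1% of eligible transcripts with a median of -0.09. In the 8 intermediate larvae left, edgeR called 0 members falling and 0 rising, as for all 20072 transcripts tested. At an unadjusted p under 0.05, 1 member was falling and 2 were rising, against 1.25% and 1.84% of all transcripts tested. DESeq2 and limma were not run on these 8. The median member slope there was 0.12 log2 per mm, against -0.04 for eligible transcripts. What sets the 15 libraries apart was not tested, and within the intermediate group length and standing apart cannot be told apart, since 7 of the 8 larvae from 5991.09 µm on were among the 15.

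**Figure D5:**
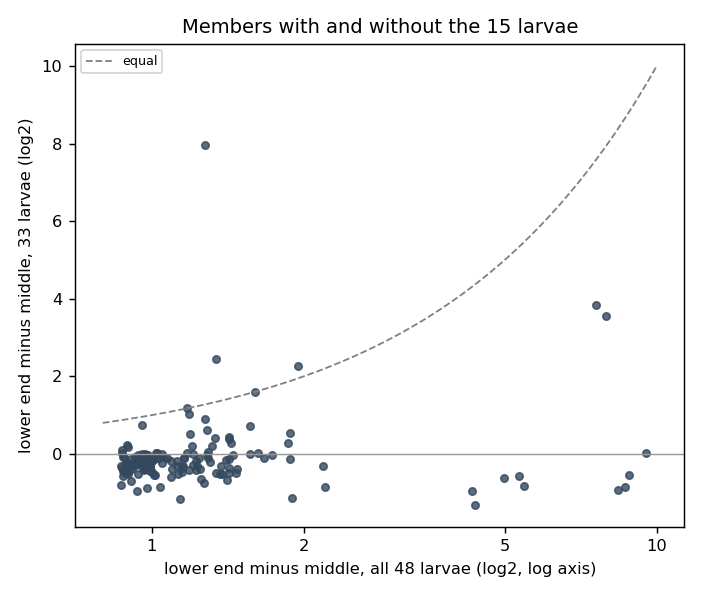
Dip of each of the 150 members over the 33 larvae that did not stand apart (log2, y axis) against its dip over all 48 (log2 units on a logarithmic axis, x axis). The dashed curve marks equal dips and the grey line a dip of 0. Most points lie near or below 0, with a median of -0.22, and 9 members stay above 0.87.

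In the 33 larvae 9 members had a dip above 0.87. How many eligible transcripts had one there was not counted, and each intermediate median then rested on 8 larvae. The largest was XM_025408473.1 of LOC105253073, with 7.96 against 1.28 in all 48. Among the 8 intermediate larvae that did not stand apart it was listed at 0 in 5 and at 184 to 366.5 normalized counts in the other 3. Its gene total was flat over all 48 larvae, with medians of 649, 651 and 651 scaled reads. Without the 15 the dip of the gene total was -0.095. XM_011261894.3 of LOC105253684 and XM_025414371.1 of LOC105250815, both described above, kept dips of 3.85 and 3.56. XM_025407912.1 of LOC105249379 kept 2.45. Over all 48 larvae the total of that gene was highest in the intermediate group, with medians of 4203, 8674 and 7825 scaled reads. Without the 15 the dip of that gene total was -0.08. The smallest member dips in the 33 larvae were -1.31 for XM_011267362.3 of LOC105257024, -1.16 for XM_011264410.3 of LOC105255245 and -1.13 for XM_011254287.3 of LOC105249082. Next came -0.95 each for XM_011252139.3 of LOC105247762 and XM_011266365.3 of LOC105256457. Those 5 were thus higher in the intermediate than in at least one end group once the 15 larvae were left out.

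A few members ran differently. XM_011254007.2 of LOC105248926 was the 1 member called rising in the intermediate group, with a slope of 5.07 ± 1.44 log2 per mm (SE, n = 16, edgeR adjusted p = 0.0178, limma adjusted p = 0.0792). It ranged from 58.8 to 21650 normalized counts with a median of 1241 in the shortest larvae, 38.5 to 58570 with a median of 321 in the intermediate and 27.4 to 313900 with a median of 4080 in the longest. Its highest values were in larvae that stood apart, 313912 in No. 3, 58574.8 in No. 6 and 49200.3 in No. 32, and its dip without the 15 was 2.28 against 1.95. Without the 15 its median was thus lowest in the intermediate group, unlike that of most members. Of the 8 intermediate larvae then left, only No. 19 was longer than 5787.72 µm, so the longer part of that group is hardly covered.

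XM_011253838.3 of LOC105248829 and XM_011255603.3 of LOC105249845, singled out after their values were seen, peaked in the same larva. They reached 43777.4 and 57091.3 normalized counts in No. 3, with intermediate medians of 480 and 222 and medians of 4244 and 3361 in the longest larvae. In No. 6 they had 16932.7 and 26042.9, while in No. 4, also among the 15, they had 190.6 and 35.0. LOC105248926 had 154.9 in No. 4, so all 3 genes were high in some and low in other larvae that stood apart.

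The 150 transcripts chosen by the mirrored rule, highest at intermediate length, were high in the larvae where the members were low. The mirrored rule chose them for high values in the same intermediate larvae, 8 of which stood apart. Their direction there follows in part from that choice and is not independent evidence. Their median height was 0.62 on the log2 scale, and in the 15 larvae that stood apart their median deviation was 0.27 to 1.81, against -1.01 to 0.69 in the other 33. Without the 15 their median height was -0.14 and 47 of 150 were still highest in the intermediate larvae. How many eligible transcripts were highest there without the 15 was not counted, so nothing is read from the 47. The 150 of the mirrored rule were shorter, with a median length of 2206 nt against 3514 nt for the members. That difference in length was not tested.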

How the data were processed

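Per the labels, RNA of 48 whole larvae was sequenced. Per the file headers, the tables deposited for each larva hold estimated counts (expected counts) and TPM per transcript, which the authors deposited in the layout of a Salmon quantification. The authors also deposited a single table of normalized signal, here called normalized counts. How it was made is not stated. Compared with the estimated counts, it divides counts by a factor that varies between transcripts, and 97 of its cells are 0 where over 50 reads are estimated, 3 of them among the 7200 cells of the members. Tools listed in the submitters' processing notes, without their roles, are Salmon, bcl2fastq 2.20, Trim Galore 0.6.7, DESeq2 and DESeq. For the build, index and strand setting, the sources used here give nothing. Each larva is 1 animal of 1 colony.

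Members were chosen on the normalized table with a pseudocount of 1, and the rule, the lists and the tests were chosen with earlier results of these data known. Estimated counts were rounded, filtered with filterByExpr, scaled by TMM and fitted in R 4.3.3 with edgeR 4.0.16 within each length group of 16 larvae, with length in mm as the covariate and no other term, with the SE taken as slope over the square root of F. Scaled reads are counts per TMM-scaled library times the mean library, summed over the transcripts of a gene. The 15 libraries are those with a first-component score above 20. The scripts were tested on simulated data. Alternatives were RLE factors, no filter, DESeq2 1.42.0, limma 3.58.1 on the normalized table, other pseudocounts, means, other group sizes, CPM, TPM, no limit on the median level, removal of the length trend and leaving out libraries. Other steps used Python 3.11.15 and matplotlib 3.10.9.

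Of 26315 quantified transcripts, 25811 matched the RefSeq annotation of Cflo_v7.5 by accession, in 13878 genes. One transcript naming no gene held at most 0.00124% of a library and was left out. The rule for named members takes the 12 largest dips, the 5 highest medians, genes with 2 or more members, up to 5 called slopes of smallest p per direction and length group, 5 on each side of the border of the list, and the 5 largest and 5 smallest dips without the 15 libraries. It also asked for named genes and for protein motifs. No member has a symbol other than a locus number, and motifs were not analysed here.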

Additional observations from a re-analysis of the deposited data

How the results depend on the processing

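The median dip was 1.10, with 150 members lowest at intermediate length. Leaving out the 15 libraries turned it to -0.22 with 33 members lowest, and 17 of the 150 would be chosen again. The mean of each length group in place of the median gave 0.66 and 46 chosen again, 12 larvae at each end gave 0.67 and 93, and no limit on the median level let only 11 be chosen again. Each larva left out in turn gave median dips of 0.94 to 1.31, 148 to 150 members lowest and 112 to 142 chosen again. CPM, TPM, other pseudocounts, removal of the length trend, leaving out No. 42 and No. 43, and scaled reads (added after the data were seen) gave 0.99 to 1.15. Falling calls at intermediate length were 89 with edgeR and 0 without the 15, where only 8 larvae are left. Rising calls there were 1 with edgeR, 2 with DESeq2, 0 with limma and 0 without the 15. DESeq2 also called 5 members rising in the shortest larvae, and 1 rising and 1 falling in the longest. Where no cause is named, the cause was not tested. No paired analysis was possible because each larva belongs to 1 length group and no number is shared between groups. For genes with several transcripts an estimate of 0 can be a failed division of reads among them.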
